A study of Mus musculus with 28 samples.

Results

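Some of the most highly expressed genes of the mouse testis had no peak of meiotic DNA breaks at either end in mice whose PRDM9 lacks the KRAB domain. They were chosen by a rule on measured values. A protein-coding autosomal gene was taken when its mean level in 2 Prdm9 knockout (KO) testis libraries was 80 or more and when no peak of single-stranded DNA in Prdm9 (K/K) testis lay within 1000 bp of its start or its end. The rule found 571 of 20042 matched genes, out of 1823 at that level. The other 1252 highly expressed genes had a peak and serve as the comparison. Over all 20042 genes, 52.9% had no peak.

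Levels came from whole testis of C57BL/6 mice in 2 libraries of Prdm9 KO, 2 of Hop2 KO and 1 of adult wild type. Breaks came from 1 library of C57BL/6 Prdm9 (K/K) testis, whose PRDM9 lacks the KRAB domain, so breaks and RNA were measured in different mutants. Hop2 (Psmc3ip) encodes a cofactor of strand exchange. The sources used here give neither the age of the mutants nor the deleted exons, nor whether the paired libraries are of different animals, so p-values reflect only how far these libraries differ, and that may be technical. Spermatocytes of both knockouts are known to stop in meiotic prophase, while adult wild-type testis also holds round and elongating spermatids. All RNA was from whole tissue, in which fewer cells of a type and less RNA per cell cannot be told apart. Markers of germ cells were present in every library. Dazl, an RNA-binding protein of germ cells, read 146 and 123 (Prdm9 KO), 160 and 105 (Hop2 KO) and 49.8 (wild type), and Hspa2, a chaperone of spermatocytes and spermatids, read 175 and 176, 182 and 155, and 1885 in the same order. That order is kept throughout.

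Meiotic breaks are made by SPO11 in spermatocytes, and their resected ends are coated by the recombinase DMC1. Pulling down DMC1 and sequencing the single-stranded DNA (SSDS) marks them. PRDM9 normally binds its own DNA motif through its zinc fingers, trimethylates lysine 4 of histone H3 there and so places breaks away from promoters. Where PRDM9 does not function, breaks are known to form at promoters and other sites that carry this mark independently of PRDM9. The testis also contains cells that do not enter meiosis, namely Leydig cells that make androgens, Sertoli cells that nurse germ cells, myoid cells around the tubules, macrophages, vessels and blood.

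The promoters printed here show the kinds of sequence involved. Each is the 250 bases before the start in RefSeq's GRCm38.p6 table, written 5′ to 3′ on the strand of the gene, with every CpG in capitals. From the Leydig, Sertoli, macrophage, interstitial matrix and ribosomal protein lists, the gene without a peak with the highest level in Hop2 KO and a usable window is shown, and for contrast the highest such gene with a peak of the ribosomal protein and early meiotic lists. Genes of higher level were passed over where they had no entry with a single strand, as Cyp17a1, Clu and Aard, or where the window overlaps a coding gene record or starts away from the end of their own, as Insl3, Ptgds and Inha. The windows are those of Aldh1a1 (chr19:20492333-20492582, plus strand), Defb36 (chr2:152604077-152604326, plus strand), Lyz2 (chr10:117282273-117282522, minus strand), Sparc (chr11:55420081-55420330, minus strand), Rpl41 (chr10:128549169-128549418, minus strand), and, with a peak, Rplp0 (chr5:115559217-115559466, plus strand) and Tex101 (chr7:24672051-24672300, minus strand).
Aldh1a1: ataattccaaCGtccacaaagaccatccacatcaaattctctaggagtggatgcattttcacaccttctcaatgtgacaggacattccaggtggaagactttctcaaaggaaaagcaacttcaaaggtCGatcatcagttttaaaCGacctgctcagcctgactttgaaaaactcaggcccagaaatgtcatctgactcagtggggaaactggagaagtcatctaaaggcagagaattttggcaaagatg
Defb36: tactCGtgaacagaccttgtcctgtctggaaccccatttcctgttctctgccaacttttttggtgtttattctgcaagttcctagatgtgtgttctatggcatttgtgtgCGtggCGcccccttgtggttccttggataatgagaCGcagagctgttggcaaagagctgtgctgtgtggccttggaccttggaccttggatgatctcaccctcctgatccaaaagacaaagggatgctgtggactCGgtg
Lyz2: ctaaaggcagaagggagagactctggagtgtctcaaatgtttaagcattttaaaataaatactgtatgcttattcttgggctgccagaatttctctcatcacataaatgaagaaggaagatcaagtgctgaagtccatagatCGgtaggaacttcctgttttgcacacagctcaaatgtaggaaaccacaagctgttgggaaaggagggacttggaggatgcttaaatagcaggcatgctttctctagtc
Sparc: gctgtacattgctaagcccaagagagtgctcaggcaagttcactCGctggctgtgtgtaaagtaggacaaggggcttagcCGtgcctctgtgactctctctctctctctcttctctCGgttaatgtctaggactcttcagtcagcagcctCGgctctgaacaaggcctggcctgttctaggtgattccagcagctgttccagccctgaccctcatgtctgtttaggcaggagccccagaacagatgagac
Rpl41: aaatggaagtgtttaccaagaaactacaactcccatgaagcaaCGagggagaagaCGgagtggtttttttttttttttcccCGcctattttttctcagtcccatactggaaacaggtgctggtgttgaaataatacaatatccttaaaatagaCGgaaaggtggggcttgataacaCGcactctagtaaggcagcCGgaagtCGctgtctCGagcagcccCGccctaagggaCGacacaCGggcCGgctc
Rplp0: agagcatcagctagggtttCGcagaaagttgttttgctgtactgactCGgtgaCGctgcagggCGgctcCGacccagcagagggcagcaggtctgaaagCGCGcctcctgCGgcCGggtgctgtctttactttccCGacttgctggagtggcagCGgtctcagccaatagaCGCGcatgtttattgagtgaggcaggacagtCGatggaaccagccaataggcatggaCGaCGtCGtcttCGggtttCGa
Tex101: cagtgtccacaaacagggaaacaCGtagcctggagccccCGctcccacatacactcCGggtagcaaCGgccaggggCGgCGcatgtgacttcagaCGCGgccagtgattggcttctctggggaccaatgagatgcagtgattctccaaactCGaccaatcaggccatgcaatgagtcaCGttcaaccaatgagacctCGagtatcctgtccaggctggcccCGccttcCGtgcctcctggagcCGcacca
The 4 promoters of somatic cell genes hold 3, 5, 1 and 4 CpG in these 250 bases. Rpl41, also without a peak, holds 12, while Rplp0 and Tex101, both with a peak, hold 19 and 14.

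The share of genes without a peak depended on level in a curve that turned. It was 91.5% (4220 of 4611) at levels of 0 to 0.1, 46.9% at 1 to 10 and 26.5% (533 of 2009) at 40 to 80. Above 80 it went up again, to 28.7% (298 of 1037) at 80 to 160, 33.0% (154 of 466) at 160 to 320 and 37.2% (119 of 320) at 320 or more. Genes of the highest levels were thus more often without a peak than genes of middle level, a description that uses the same values as the rule. A level is in rescaled TPM, a share of transcripts per length that the authors scaled between libraries, with unknown read depth.

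**Figure D1:**
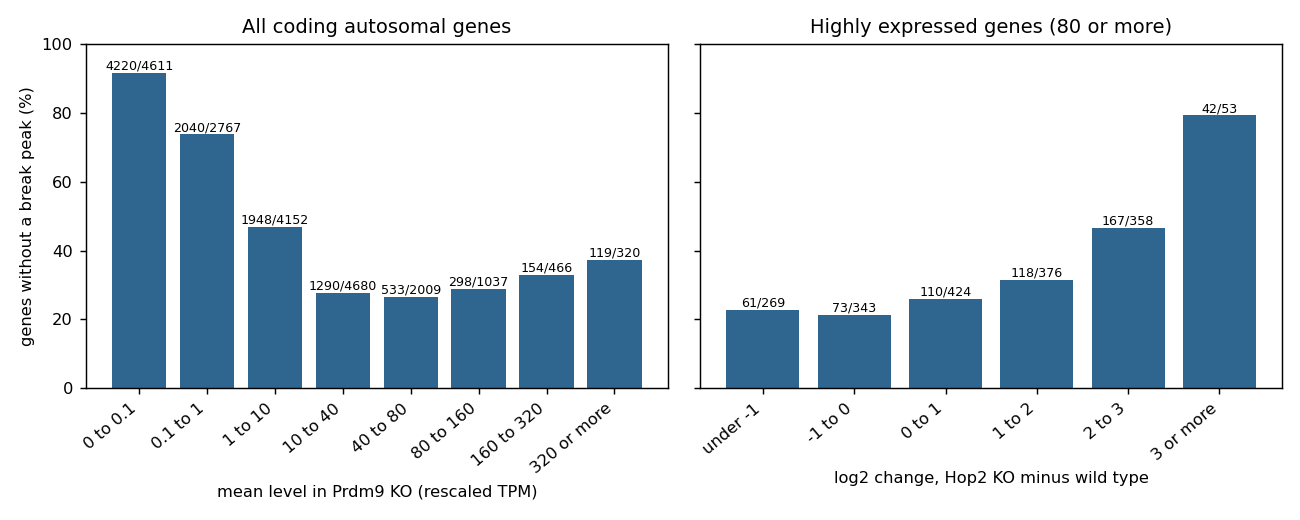
Share of genes without a break peak, by mean level in Prdm9 KO (left, all 20042 coding autosomal genes) and, for the 1823 highly expressed genes, by log2 change between Hop2 KO and wild type (right). Numbers on bars are genes without a peak of all genes in the bin. The left bars reach their lowest at 26.5% and end at 37.2%, and the right bars run from 22.7% to 79.2%.

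Lists of marker genes were used to ask which cells these transcripts belong to. Of 48 highly expressed genes on lists of somatic testis cell types, 35 (72.9%) had no peak. Of 11 on germ cell lists, 1 (9.09%) had none, and of 283 on lists of broadly expressed genes, 62 (21.9%) had none, beside 31.3% of all 1823. These are counts without a test. The lists hold 97 of the 571, with Acta2 on both a somatic and a cytoskeletal list, and 474 are on no list. Of the 11 germ cell genes, Tcp1, Hspa2 and Tuba3a, each with a peak, are also among the 283.

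**Figure D2:**
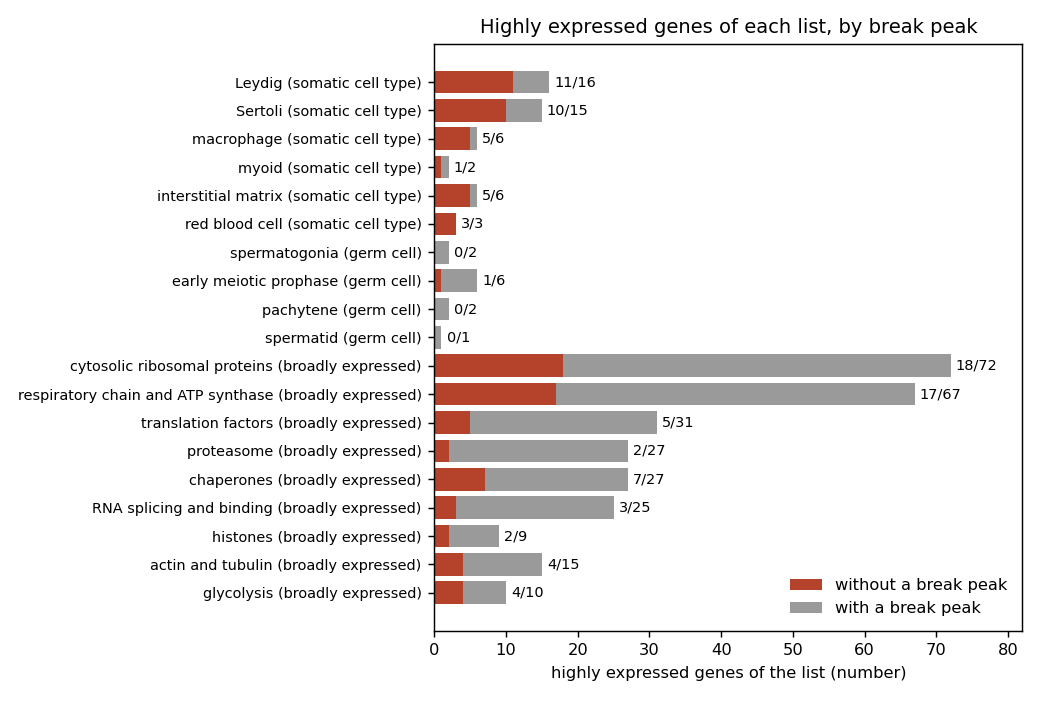
Number of highly expressed genes on each list (bar length), split into those without a break peak (red) and with one (grey). Red fills most of the Leydig (11 of 16), Sertoli (10 of 15), macrophage (5 of 6) and matrix (5 of 6) bars, and 18 of 72 of the ribosomal protein bar.

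Leydig genes were the largest somatic group by number. Of 16 highly expressed Leydig genes 11 had no peak. Among them were 6 of the steroid pathway. Star moves cholesterol into mitochondria, Cyp11a1 and Cyp17a1 are steroid cytochromes, Hsd3b1, Hsd3b6 and Hsd17b3 are steroid dehydrogenases. Insl3, the Leydig hormone of testis descent, read 31185 and 44713 (Prdm9 KO), 21025 and 68224 (Hop2 KO) and 5124 (wild type), the highest level of the 571 in both knockouts. All 4 knockout values of Insl3 lay above wild type. Its change between Hop2 KO and wild type was 2.89 on the log2 scale (SE 2.19, limma adjusted p = 0.298), which did not pass, although without the intensity trend or with quantile normalization it did (limma adjusted p = 0.0441 and 0.00160). Its record lies inside that of Jak3, so reads of the overlapping part are uncertain. No distinct fragment of single-stranded DNA lay within 1000 bp of either end, which allows up to 3, and its nearest peak was 28774 bp away.

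Cyp17a1, which makes androgen precursors, read 2151 and 1649 (Prdm9 KO), 2501 and 2407 (Hop2 KO) and 380 (wild type). It rose by 2.69 (SE 0.29, limma adjusted p = 0.00317), and it too had 0 fragments at both ends, which allows up to 3. Aldh1a1, an enzyme of retinoic acid synthesis, was 1330 and 1578, 1575 and 1577, and 219 in wild type, and rose by 2.84 (SE 0.22, limma adjusted p = 0.00132), with 2 fragments at its denser end. For both genes every knockout value lay above wild type. The other 8 Leydig genes without a peak had 1 to 5 fragments at the denser end. The 5 Leydig genes with a peak were Fabp3, a fatty acid carrier, Vcam1, an adhesion molecule, Fdx1 and Fdxr, which pass electrons to steroid cytochromes, and Nr5a1, the transcription factor SF-1.

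Sertoli genes divided in a like way. Of 15 highly expressed, 10 had no peak: Clu, Ptgds, Aard, Inha, Defb36, Cst12, Cst9, Trf, Gata4 and Inhbb. Clu, clusterin, read 4686 and 6076 (Prdm9 KO), 3809 and 7713 (Hop2 KO) and 1239 (wild type). The knockout values of Clu lay above wild type, but its change of 2.13 (SE 0.68, limma adjusted p = 0.0533) did not pass; under 5 alternatives it did (0.00328 to 0.0419). Ptgds, a prostaglandin D synthase, was 2113 and 6792, 1582 and 7321, and 770, a wide spread within each genotype, and did not pass (2.14, SE 1.31, limma adjusted p = 0.215). In both genotypes the higher value of Insl3, Clu and Ptgds was in replicate 2. Aard was even between libraries, at 884 and 734, 1052 and 984, and 155 in wild type, and rose by 2.70 (SE 0.19, limma adjusted p = 0.00114). Its 8 fragments were the most of any gene on the somatic lists without a peak. The 5 with a peak were Ctsl, a cathepsin, Cldn11, of the blood-testis barrier, the hedgehog ligand Dhh and the transcription factors Wt1 and Dmrt1, the last also expressed in spermatogonia.

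Most macrophage and matrix genes had no peak either. Of 6 highly expressed macrophage genes 5 had no peak. Lyz2, lysozyme, read 254 and 162 (Prdm9 KO), 260 and 276 (Hop2 KO) and 20.5 (wild type), and rose by 3.64 (SE 0.31, limma adjusted p = 0.00169). Cd74, the invariant chain of antigen presentation, rose by 2.44, and C1qb, C1qa and C1qc, the chains of complement C1q, rose by 2.48, 3.52 and 3.28. The 3 C1q genes lie side by side on chromosome 4, with their nearest peak 108025 to 123815 bp away, so they share their surroundings. H2-Ab1 had a peak, with 6 fragments at the denser end, as many as the highest of the 5 without one. Of 6 matrix genes 5 had none. Sparc, a collagen-binding glycoprotein, was 2008 and 2147, 1806 and 2471, and 491, and rose by 2.10 (SE 0.32, limma adjusted p = 0.00754). Serping1, the C1 inhibitor, rose by 3.20, and Gsn, gelsolin, by 1.70 (limma adjusted p = 0.0285; 0.114 without Hop2 KO replicate 1 and 0.0817 without replicate 2). Mgp and Dcn also rose.

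The smooth muscle actin Acta2, a myoid marker, was 200 and 102, 251 and 154, and 46.8, and rose by 2.05 (limma adjusted p = 0.0352), a call lost without Hop2 KO replicate 1 (0.12) or 2 (0.064). Of the 2 highly expressed myoid genes, Acta2 had no peak and Myl9 had one. At the denser end Acta2 held 3 fragments and Myl9 7. The 3 globin genes Hba-a1, Hba-a2 and Hbb-bs, made in red blood cells, all lacked a peak. Hba-a2 was 551 and 216, 279 and 323, and 135, and none of the 3 passed with all libraries (limma adjusted p = 0.178 for Hba-a2, 0.068 for Hbb-bs and 0.394 for Hba-a1). Each passed when either Prdm9 KO library was left out (0.0164 to 0.0258). Hba-a1 and Hba-a2 are near copies, so reads may be split between them. No endothelial gene reached 80. In all, 28 of the 35 somatic genes without a peak rose and 0 fell, at a median log2 change of 2.67, and the 7 that did not pass were Insl3, Scarb1, Clu, Ptgds and the globin genes. Beside this, 13 of 13 somatic genes with a peak rose (median 2.14), and 35.0% of all 16261 genes tested rose and 39.5% fell.

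Few listed germ cell genes were highly expressed, and nearly all of those had a peak. Of 11 only Stag3, a meiotic cohesin subunit, had no peak. It read 101 and 104 (Prdm9 KO), 92.9 and 97.2 (Hop2 KO) and 494 (wild type), and fell by 2.36 (SE 0.09, limma adjusted p = 0.000267). A peak lay at another annotated start of Stag3, and its nearest end was 6170 bp from a peak, so counting every annotated start leaves 0 of 11. The other 10 had peaks, with a median of 65 distinct fragments within 1000 bp of the denser end. Syce2 and Syce3, of the synaptonemal complex, had 81 and 46, Mael, of the piRNA pathway, 91, Sycp1, of the synaptonemal complex too, 89, Dazl 95, Hspa2 87, the tubulin gene Tuba3a 37 and the chaperonin gene Tcp1 49. The lowest were Uchl1, of spermatogonia, with 27, and Tex101, a germ cell surface protein, with 18.

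**Figure D3:**
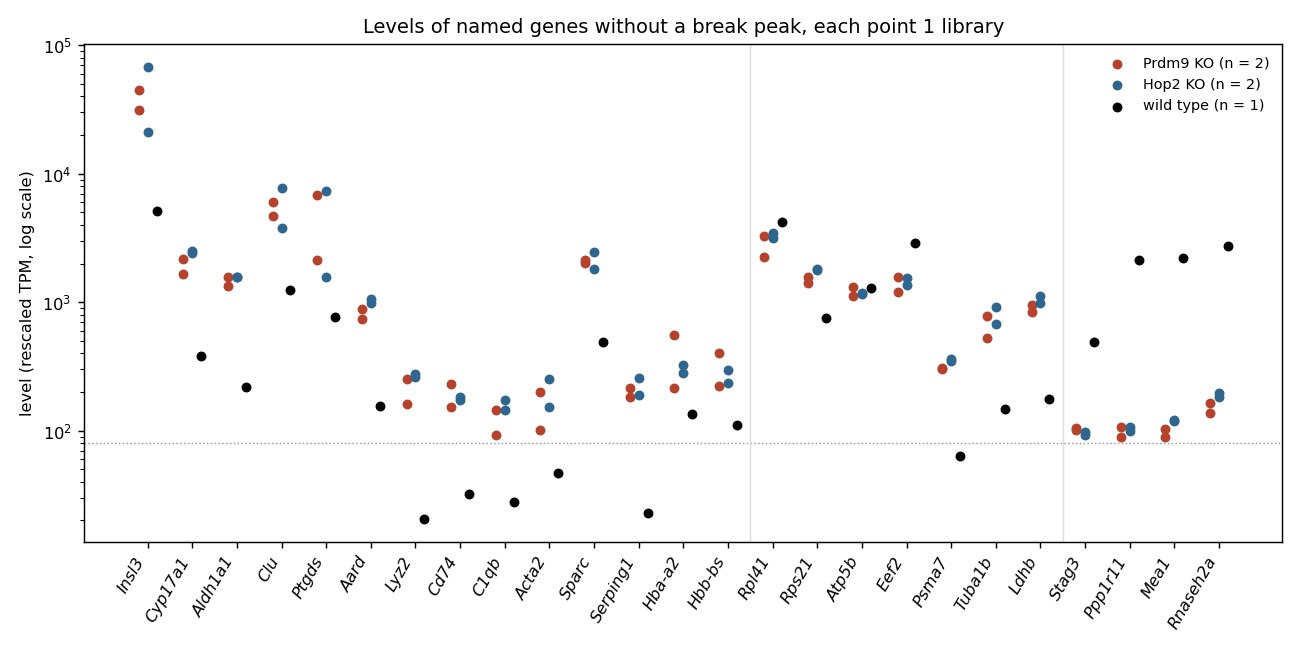
Level of 25 named genes without a break peak in each library, on a log axis. From left, genes of somatic lists (Insl3 to Hbb-bs), of broadly expressed lists (Rpl41 to Ldhb), and Stag3 with 3 of the largest falls. Stag3 and Mea1 had a peak at another annotated start. The dotted line is the level of 80. Wild type (black) lies below all knockout points for the somatic genes and above them for the last 4.

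The larger number of listed genes without a peak were broadly expressed, although most genes of those lists had one. Of 72 cytosolic ribosomal protein genes 18 had no peak, and of 67 respiratory chain and ATP synthase genes 17 had none. Smaller shares were seen for translation factors (5 of 31), proteasome subunits (2 of 27) and splicing and RNA-binding proteins (3 of 25), and 7 of 27 chaperone, 4 of 15 actin and tubulin, 4 of 10 glycolysis and 2 of 9 histone genes had none. Such genes are known to be active in most cells, spermatocytes included. Of the 62, 26 rose and 13 fell between wild type and Hop2 KO (median log2 change 0.34), beside 66 and 55 of the 221 with a peak (median 0.12). Of all genes tested 35.0% rose and 39.5% fell. Of the 18 ribosomal protein genes 11 rose and 1 (Fau) fell, without a test of the list.

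Rpl41, the smallest ribosomal protein, read 3289 and 2258 (Prdm9 KO), 3427 and 3182 (Hop2 KO) and 4220 (wild type), a change that did not pass (-0.35, SE 0.47, limma adjusted p = 0.53) and that turned to 0.46 or 0.30 under 2 other scalings. It had 16 fragments at its denser end, with the nearest peak 198330 bp away. Rps21 was 1567 and 1412, 1794 and 1828, and 750, and rose by 1.27 (SE 0.23, limma adjusted p = 0.0127; 0.0751 and 0.0791 without Hop2 KO replicate 1 or 2). It had 17 fragments. Rps29 had 71 and no listed peak within 8419 bp. Ribosomal genes thus ranged from Rpl22, with 1 fragment, to Rps29.

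Among the others, Atp5b, the catalytic beta subunit of ATP synthase, was 1310 and 1125, 1155 and 1177, and 1299, and did not pass (-0.16, limma adjusted p = 0.569; 0.66 and 0.55, both passing, under 2 other scalings). Eef2, which moves the ribosome along, was 1562 and 1210, 1542 and 1354, and 2903. It fell by 1.01 (limma adjusted p = 0.0490), a call lost in 6 alternatives (0.0544 to 0.559). Psma7, a proteasome subunit, rose by 2.47 (SE 0.10, limma adjusted p = 0.000283), from 63.7 to 351 and 363. Tuba1b, an alpha tubulin, rose by 2.41 and Ldhb, the heart form of lactate dehydrogenase, by 2.57. Ldha, the muscle form, fell by 3.43 and had no peak either.

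The change between Hop2 KO and wild type comes from libraries that the rule did not use, although its error was estimated with the Prdm9 KO libraries in the same fit. Of the 571 genes, 365 (63.9%) rose and 82 (14.4%) fell, with a median log2 change of 1.41. Of the 1252 with a peak, 595 (47.5%) rose and 321 (25.6%) fell, with a median of 0.48. Over all genes tested 35.0% rose and 39.5% fell (limma, Benjamini-Hochberg adjusted p under 0.05), with a median of -0.06. Both sets were chosen for a high level in a knockout, which favours rises, and the difference between them was not tested. The single wild-type library was taken to vary like the knockouts. Quantile normalization and rescaling of columns moved the median of all genes to 0.59 and 0.63 and the share of rises among all calls from 47.0% to 61.5% and 62.5%. Relative to the median of all genes, the 571 were higher by 1.47, and by 1.52 and 1.56 with these scalings, and genes with a peak by 0.54, 0.75 and 0.65.

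The share of highly expressed genes without a peak climbed with this change. It was 22.7% (61 of 269) where the log2 change was under -1, 21.3% at -1 to 0, 25.9% at 0 to 1, 31.4% at 1 to 2, 46.6% (167 of 358) at 2 to 3 and 79.2% (42 of 53) at 3 or more. Some genes without a peak also had few fragments, under 11 at the denser end. They made up 18.2%, 16.0%, 18.4%, 26.3%, 43.9% and 79.2% of all highly expressed genes in these bins. Genes with both traits are 480 of the 571, and their fragments come from the library that gave the peaks. Their climb is thus largely the first one recounted, not a separate result. No share among genes with few fragments was taken.

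The 5 largest rises among the 571 were those of Serpina3n, Lrg1, Igfbp3, Klk1b27 and Klk1b24. Serpina3n, a serine protease inhibitor, was 149 and 123, 111 and 179, and 1.66, and rose by 5.74 (SE 0.35, limma adjusted p = 0.00077). Lrg1, a secreted leucine-rich glycoprotein, rose by 4.92 and Igfbp3, a binding protein of insulin-like growth factors, by 4.76. The kallikrein genes Klk1b27 and Klk1b24, serine proteases, rose by 4.46 and 4.18. These 2 are close copies, spread widely (Klk1b27 at 532 and 132 in Prdm9 KO), and lost their calls without Hop2 KO replicate 1 (0.0952 and 0.071) or 2 (0.0621 and 0.0525). Igfbp3, at 92.0 and 101 in Prdm9 KO against 2.26 in wild type, had a CpG ratio of 0.96, unlike the other 4, whose ratios lay from 0 to 0.17.

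The 5 largest falls were of genes far more abundant in wild type. Ppp1r11, a phosphatase regulator, read 107 and 89.9 (Prdm9 KO), 106 and 99.4 (Hop2 KO) and 2136 (wild type), and fell by 4.36 (SE 0.15, limma adjusted p = 0.000194). The log2 changes of the other 4 were -4.20 for Mea1, an antigen of the male germ line, -4.04 for Mex3d, an RNA-binding protein, -3.84 for Rnaseh2a, a subunit of RNase H2, and -3.61 for Csnk1g2, a casein kinase. Every knockout value of the 5 lay below wild type, but they were picked for the size of this fall. Mea1 lay close to the limit, with a peak 1058 bp away, and a peak lay at another of its annotated starts. Among the 10 highest in Hop2 KO, besides genes named above, were Gstm1 and Gstm2, glutathione transferases (5405 and 7207, and 2815 and 3328, against 901 and 398 in wild type), Lcn2, lipocalin 2 (5064 and 6872 against 471), Defb19, a beta-defensin, and Agt, angiotensinogen. Gstm2 rose by 2.94 and Lcn2 by 3.65. Gstm1 rose by 2.79 and Agt by 2.91, and both lost the call without Hop2 KO replicate 1 (0.0638 and 0.0559) or 2 (0.0776 and 0.0953). Defb19 did not pass (1.94, limma adjusted p = 0.0558).

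Prdm9 KO was set against Hop2 KO as a check only, because the Prdm9 KO libraries chose the genes. Of the 571 none was called (0 higher, 0 lower), and 28 had an unadjusted p under 0.05 (limma), beside 445 (3.10%) of all 14358 genes tested. Over all genes 0.0139% rose and 0.0% fell, so having none called among the 571 is near the share of all genes. The set was nearly the same when Hop2 KO levels took the place of Prdm9 KO, with 555 of the 571 at 80 or more and 607 genes without a peak in all. Wild type was at 80 or more for 293 of the 571 (51.3%) and for 813 of the 1252 with a peak (64.9%).

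A listed peak and a break signal are not the same thing, and the fragments were therefore counted at each end. The library holds 9397213 fragment lines, of which 2652951 (28.2%) were distinct, with 17731 peaks. Within 1000 bp of the denser end, the 571 genes held a median of 5 distinct fragments and those with a peak 28. These counts come from the library that gave the peaks and are a description. Genes were sorted by the values of those with a peak, as dense at their median of 28 or more, sparse below their 10th percentile of 11, and middle between. Of the 571, 480 (84.1%) were sparse, 45 middle and 46 (8.06%) dense. All 35 somatic genes without a peak were sparse, with 0 to 8 fragments, whereas 41 of the 62 broadly expressed genes were sparse and 13 dense. Somatic genes with a peak held a median of 12 fragments, and broadly expressed genes with a peak 31.

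Even the sparse starts were not empty. Around 384 sparse starts of known strand the density was 2.32 fragments per kb in the 250 bp before the start, 0.66 to 0.88 at 3 to 5 kb before it and 1.31 to 1.58 at 3 to 5 kb after it, inside or past the gene. Around 5009 starts of genes with a level under 1 and no peak it was 1.08, and around 1048 highly expressed genes with a peak 20.4. Fragments on the plus strand lie to the left of a break and those on the minus strand to the right, so their mean positions are shifted. Both strands had at least 3 fragments in 1233 genes with a peak, 135 of the 480 sparse genes and all 46 dense ones. The shift there was 843 bp at the median for genes with a peak, 541 bp for sparse genes and 812 bp for dense ones. It was over 0 in 1200 of the 1233 with a peak and in all 46 dense genes (431 to 1179 bp). Among the 135 sparse genes it was over 0 in 115, with a range of -2052 to 1701 bp.

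**Figure D4:**
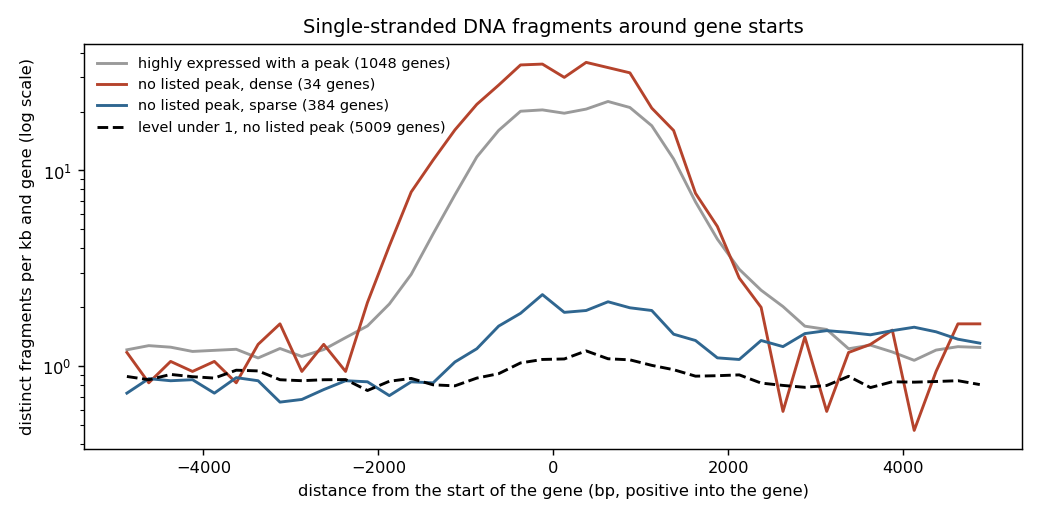
Distinct fragments of single-stranded DNA per kb and gene in bins of 250 bp around the start, on a log axis. Near the start, dense genes without a listed peak (red, 34 genes) exceed genes with a peak (grey, 1048 genes). This follows from their choice at 28 or more fragments, the median of genes with a peak. Sparse genes (blue, 384 genes) show a low hump of up to 2.32 per kb above genes with a level under 1 (dashed).

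The 5 genes with the most fragments at the start and no listed peak were Fmc1 (174), Arf4 (135), Hsp90b1 (134), Adk (130) and Ndufb5 (112). Fmc1 is an assembly factor of ATP synthase, Arf4 a GTPase of the Golgi, Hsp90b1 a chaperone of the endoplasmic reticulum, Adk adenosine kinase and Ndufb5 a subunit of complex I. Their nearest listed peaks were 11209 to 96424 bp from either end (Adk has one at another annotated start) and their strand shifts 698 to 1100 bp. The peak list has no score or threshold, so it cannot show why these ends are missing from it. Of all 4957 genes at or above 28 fragments, 218 (4.40%) had no listed peak. The 46 dense genes included 4 chaperone genes, 4 ribosomal protein genes and 3 respiratory chain genes. They lay on 16 chromosomes, 9 of them on chromosome 6. Of all genes on chromosome 6 at or above 28 fragments, 24 of 258 (9.30%) had no listed peak, the highest share of any chromosome.

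Promoter sequence, which the rule did not use, is given as counts without a test. Of the 571 genes 454 matched an entry of the RefSeq promoter table (300 bases, 250 before and 50 after the start). The ratio of observed to expected CpG was 0.71 at the median, against 0.83 for 1048 genes with a peak and 0.61 for all 16042 genes matched. Ratios of 0.6 or more were found in 63.4% of the 454, 85.9% of those with a peak and 50.6% of all. The 23 somatic genes without a peak that matched had a median of 0.19, and 2 of the 23 reached 0.6, Gsn (0.68) and Inhbb (0.74). The 8 matched somatic genes with a peak had a median of 0.72, with Fdx1 at 0.82 and Fabp3 at 0.71. The 52 broadly expressed genes without a peak had 0.85 and the 176 with one 0.86, a difference far smaller than on the somatic lists. Dense, middle and sparse genes had 0.78, 0.78 and 0.69.

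A larger share of CpG-poor genes rose. Of 166 genes under a ratio of 0.6, 133 (80.1%) rose between wild type and Hop2 KO and 10 fell, and of 288 at 0.6 or more, 155 (53.8%) rose and 60 fell, beside 35.0% and 39.5% of all genes tested. Among genes with a peak the shares that rose were 58.1% of 148 and 46.1% of 900. Motifs were searched on both strands of the 300 bases. GGGCGG, the core of the Sp1 site, was in 61.2% of the 454, 73.8% of genes with a peak and 48.0% of all, and in 21.7% of the 23 somatic genes. TATAAA was in 9.69%, 7.35% and 13.3%, CCAAT in 37.7%, 40.9% and 38.9%, TGACGTCA in 2.86%, 4.20% and 2.44%, and AAGGTCA in 4.41%, 3.34% and 3.93%. Of the genes whose promoters are printed above, Rpl41, Rplp0 and Tex101 hold GGGCGG in the 300 bases, and Aldh1a1, Defb36, Lyz2 and Sparc hold none of the 5 motifs.

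Position along the chromosome was counted too, again without a test. The 571 genes had a median of 23 other coding genes starting within 500 kb, against 18 for genes with a peak and 15 for all. The share of highly expressed genes without a peak was 23.8% (109 of 458) with 0 to 11 such neighbours and 41.5% (180 of 434) with 34 to 68, the ends of a division into 4 groups of like size. The median at the denser end was 33 fragments in the first of these and 13 in the last, while the flanks from 5000 to 10000 bp away held 1.8 fragments per 2 kb in both. For genes with a log2 change under 2 the shares were 18.3% and 37.9%, and for genes at 2 or more 40.4% and 56.6%. Somatic genes without a peak had 14 neighbours at the median and broadly expressed ones 24.

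**Figure D5:**
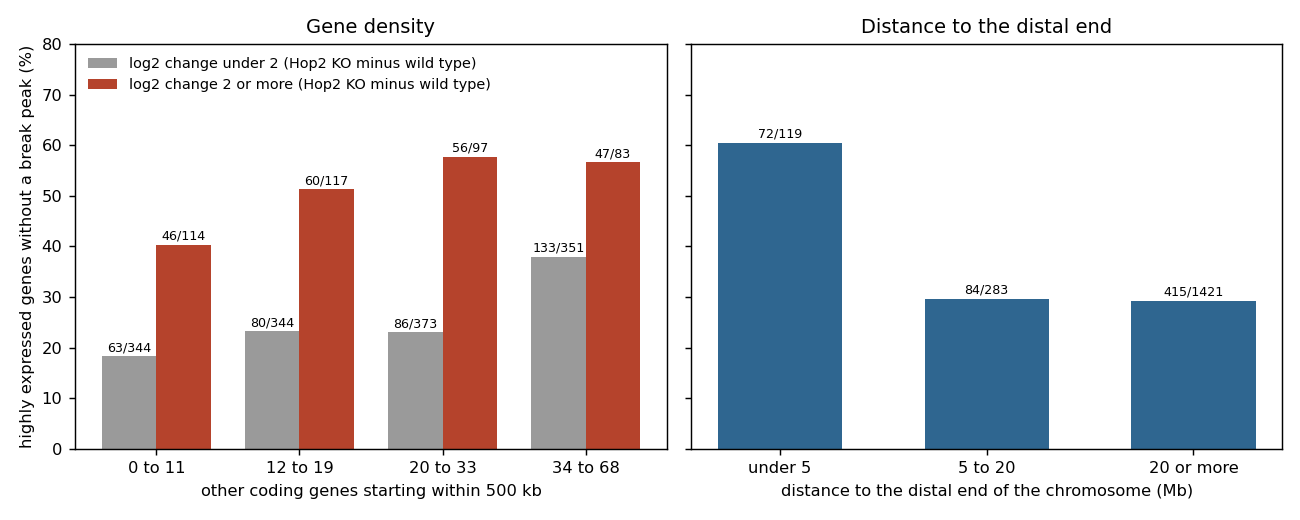
Share of highly expressed genes without a break peak by number of coding genes starting within 500 kb (left, 4 groups of the 1823 genes, split by log2 change between Hop2 KO and wild type) and by distance to the distal end of the chromosome, taken as its last fragment (right). Numbers are genes without a peak of all genes. The share is 60.5% within 5 Mb of the end and near 29% elsewhere.

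Within 5 Mb of the distal end of the chromosome, taken as the last fragment on it, 72 of 119 highly expressed genes (60.5%) had no peak, against 84 of 283 (29.7%) at 5 to 20 Mb and 29.2% farther away. The median at the denser end was 8 fragments near the end and 20 far from it, with 1.4 and 1.8 per 2 kb in the flanks, and the neighbours were 29 and 19, so that gene density and distance moved together and their parts were not tested. By chromosome the share was 58.4% (59 of 101) on chromosome 10, 41.9% on chromosome 15 and 12.5% (5 of 40) on chromosome 16.

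In windows of 5 Mb with at least 30 genes at a level of 10 or more, the share of these genes without a peak was 32.4% at the median of 85 windows and over 50% in 14. On chromosome 2 from 180 Mb it was 29 of 31, with 3 peaks in the window. On chromosome 11 from 120 Mb it was 31 of 41, on chromosome 10 from 80 Mb 56 of 77 and on chromosome 10 from 125 Mb 37 of 53. Medians of 3 to 7 fragments at the denser end were found in these 4 windows. On chromosome 4 from 155 Mb 20 of 30 had no listed peak although the median was 46.5 fragments, and the flanks there held 6 per 2 kb. The 14 windows were picked by peaks, so their content is a description. They held 134 of the 571 genes (23.5%), beside 83 of the 1252 with a peak (6.63%). Of the listed genes without a peak they held 22 of the 62 broadly expressed and 0 of the 35 somatic ones. The 22 included Rpl41, Atp5b, Eef2, Uqcr11, of complex III, and Pfkl, the liver phosphofructokinase, on chromosome 10, and Rps21 and Psma7 on chromosome 2. Of broadly expressed genes with a peak, 12 of 221 (5.43%) lay there.

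Distance to the next peak was large for most. The median was 21904 bp, 481 of the 571 had none within 5000 bp and 95 none within 100000 bp. Inside the gene or within 1000 bp of it, 85 did have a peak, and 52 had one within 1000 bp of another annotated start. Stag3, Adk, Mea1 and Ybx1 were among the 52. The records of 100 of the 571 overlap another coding gene. Just past the limit of distance lay Fam89b (1016 bp), the RNA-binding protein gene Ybx1 (1034 bp) and Rpl23a (1044 bp), and just within it Psme1 (984 bp), the transcription factor gene Jund (966 bp) and Hnrnph1 (939 bp), and these 6 genes held 4 to 9 fragments at the denser end. Just past the limit of level lay Ogfr (80.1), Ruvbl2 (80.7) and Copz1 (80.9), and just below it, also without a peak, Tesk1 (79.9), Ifitm3 (79.8) and Man2b2 (79.7).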

How the data were processed

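The gene table holds a signal of abundance per gene for 34839 genes that the authors called TPM, per the file headers; its columns sum to 825459 to 953598 in the knockouts and 1622660 in wild type, so read depth is unknown. CASAVA, kallisto and sleuth, builds GRCm38 and mm10, and, for SSDS, MACS2 2.1.0.20150420 are named per the submitters' processing notes. The authors deposited SSDS peaks without scores, and fragments, which were counted once per position and strand. All columns with sample values were used (0 left out).

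Genes were matched by symbol, name table or synonym to RefSeq records (GRCm38.p6) for position and biotype (29794 matched; of 2008 rows at 80 or more, 39 were not). Strand and promoters came from RefSeq's promoter table, and 4000 of the 20042 coding autosomal genes have no single strand there. Levels were tested with limma 3.58.1 (R 4.3.3, intensity trend) on log2(value + 1), for genes with a mean of at least 1, adjusted by Benjamini-Hochberg and called under 0.05. Such fold changes understate changes of weakly expressed genes. The fit was also run on simulated data with the same spread for every gene. The real genes differ in spread, so that run does not measure the error of these calls. Counts of fragments cover counting error only; a count of 0 allows up to 3.

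Members and lists were chosen with earlier results of these data known. Named genes are the 10 highest in Hop2 KO, up to 3 per list, the 5 largest changes per direction, the 3 nearest each limit and the 5 with most fragments at the start; the remaining list genes named, Jak3, and the dense, window and chromosome counts were chosen after values were seen. Alternatives covered distances, levels, libraries, peaks, pseudocounts, filters and scalings. The 1 gene called under the replicate block is not reported here.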

Additional observations from a re-analysis of the deposited data

How the results depend on the processing

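The direction of the results held under the alternatives of distance (481 to 603 genes without a peak), and the values that moved follow. The number of genes without a peak was 1104 at a level of 40, 273 at 160, and 1013 with only the peaks above the median in fragments per kb. This was chosen after seeing the data in place of a planned choice of peaks by score, which was not run because the list has no score. Leaving out a Prdm9 KO library gave 544 to 598. The germ cell share was 0 at a level of 160, with a peak anywhere in the gene counted or with every annotated start counted. With the denser peaks it was 18.2%. The broadly expressed share was 42.4% with the denser peaks. It was 14.5% with sparse ends only, that is, genes both sparse and without a peak out of all highly expressed ones. The somatic share lay between 66.7% and 89.6% throughout. Counting every start and sparse ends only were also chosen after seeing the data.

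Members lower in Hop2 KO were 53 with rescaled columns and 45 with quantile normalization, against 82. Over all 16261 genes tested, falls also went from 6419 to 4744 and 5016, and rises from 5691 to 7900 and 8015. Fewer members were called higher, and fewer lower, with any 1 library left out, and no count over all genes is given beside this. With rescaled columns the log2 change turned to 0.60 for Arf4, 0.66 for Atp5b, 0.64 for Fam89b, 0.36 for H2afy and 0.46 for Rpl41. With quantile normalization it turned to 0.79 for Arf4, 0.55 for Atp5b, 0.25 for Cct3, 0.86 for Fam89b, 0.52 for H2afy, 0.19 for Ndufb5 and 0.30 for Rpl41. Leaving out 1 Hop2 KO library gave -0.16 to 0.42 for Hsp90b1. The cause was not tested. Of 67 named genes, 12 lost their call without Hop2 KO replicate 1 and 14 without replicate 2. With the replicate number as a replicate block, limma called 1 member between the knockouts, higher in Prdm9 KO; the labels do not pair the libraries, and deviations of same-numbered libraries correlated at 0.415 over 16261 genes. The precision is limited by 1 SSDS library and 1 wild-type library.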
